A study of Mus musculus with 21 samples.

Results

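H19, Igf2 and 8 further imprinted genes with roles in growth (Cdkn1c, Dlk1, Meg3, Peg3, Plagl1, Mest, Grb10 and Igf2r) were examined in RNA sequencing of mouse colon and of colon tumours. They were found by symbol among the 24062 genes of the count table. All 10 had a row, and all 10 passed the low-count filter together with 15936 genes in all. The set was proposed because H19 was high in wild-type female tumours against wild-type female normal colon, so that comparison is described here without a test for any of the 10 genes. H19 is tested in no comparison that uses a wild-type female group. The other members are tested there. Those groups formed the contrast from which the set was proposed, so such p-values are not free of that choice.

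The 21 libraries fall into 7 groups of 3, all from the colon of C57BL/6 mice. Wild-type males and App NL-G-F males each gave a normal colon group and a tumour group. App NL-G-F is a knock-in of Alzheimer's disease-related mutations into the mouse gene for amyloid precursor protein, and its carriers are called knock-in below. Wild-type females gave normal colon and tumours, and App NL-G-F females gave normal colon. All tumour groups were labelled AOM/DSS, the carcinogen azoxymethane combined with the colitis agent dextran sulfate sodium. The normal groups were labelled as not treated, whereas the series text speaks of normal tissue beside tumours or of normal colon where no tumour formed. Ages are not given in the sources used here, and the labels do not say whether the libraries of a group came from separate animals. The p-values therefore measure the spread between these libraries, which may be partly technical. The stated purpose of the series is to learn what lies behind the differing, sex-dependent outcome of AOM/DSS in mice with App mutations.

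In genomic imprinting, a gene is expressed mainly or only from the copy inherited from 1 parent, under the control of DNA methylation set in the germ line. Many imprinted genes act on growth before birth and fall to low levels in most adult tissues. Igf2 encodes insulin-like growth factor 2, a growth factor expressed from the paternal copy, and the neighbouring H19 is a long non-coding RNA expressed from the maternal copy. A shared control region and shared enhancers link these neighbours. H19 is also the precursor of miR-675. Meg3 is the maternally expressed non-coding partner of the paternally expressed Dlk1, which encodes a Notch-family transmembrane protein. Cdkn1c encodes p57, an inhibitor of cyclin-dependent kinases, and Plagl1 encodes the zinc finger factor Zac1. Igf2r encodes the receptor that clears IGF2, and Grb10 encodes an adaptor that dampens insulin and IGF1 receptor signalling. Peg3 encodes a zinc finger protein and Mest a predicted hydrolase of the endoplasmic reticulum.

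Coordinates are from GENCODE on GRCm38, the build named mm10 in the submitters' processing notes. H19 lies on chr7:142575529-142578143, 72622 bases from Igf2 at chr7:142650766-142666816. Cdkn1c follows on the same minus strand at chr7:143458339-143461050, and Peg3 lies far away at chr7:6703892-6730431. Dlk1 at chr12:109452823-109463336 and Meg3 at chr12:109541001-109571726 are separated by 77664 bases on the plus strand. Plagl1 lies at chr10:13060504-13131694, Mest at chr6:30723547-30748465, Grb10 at chr11:11930508-12038683 and Igf2r at chr17:12682406-12769664. The strand setting of the counting is not given in the sources used here. Exon bases shared with a gene on the opposite strand number 1228 for Meg3 (Gm26906), 912 for Mest (Copg2), 625 for Cdkn1c (Gm44732) and 98 for Igf2 (Igf2os), with at most 71 for H19 and 38 for Plagl1. Whether reads from these stretches were assigned by strand is therefore not known. Copg2 and Igf2os have a row in the count table, and Gm26906 and Gm44732 do not. Igf2 also shares 3596 exon bases on its own strand with Gm49394, which has no row in the count table.

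The miR-675 hairpin lies at chr7:142577064-142577147 on the minus strand, inside an H19 exon. Its mature sequences are printed because they are the part of the H19 transcript with a known small RNA product. RefSeq gives them as follows on GRCm38.p6, 5′ to 3′, with the seed (bases 2 to 8) in capitals.
mmu-miR-675-5p: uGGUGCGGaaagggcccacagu
mmu-miR-675-3p: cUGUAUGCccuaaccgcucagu
The count table holds a row for Mir675 that was 0 in all 21 libraries. How reads that overlap both annotations were counted is not given in the sources used here, and these libraries were not made for small RNAs.

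RefSeq promoter windows were at hand for 8 of the 10 genes, without H19 and Cdkn1c. The windows of Meg3, Peg3, Plagl1 and Igf2 are printed because these genes carried most of the differences below. Each is the 250 bases before the transcription start on GRCm38.p6, 5′ to 3′ on the gene's strand. Capitals mark the cyclic AMP response element TGACGTCA and the GC box GGGCGG or its reverse complement, both searched on both strands. The motifs were chosen after the sequences were seen.
Meg3 chr12:109540746-109540995 plus strand: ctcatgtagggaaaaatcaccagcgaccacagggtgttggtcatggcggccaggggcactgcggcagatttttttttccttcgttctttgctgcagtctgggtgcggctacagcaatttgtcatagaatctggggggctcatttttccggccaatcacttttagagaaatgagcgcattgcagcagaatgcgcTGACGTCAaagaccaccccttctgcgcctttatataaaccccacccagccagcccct
Peg3 chr7:6730420-6730669 minus strand: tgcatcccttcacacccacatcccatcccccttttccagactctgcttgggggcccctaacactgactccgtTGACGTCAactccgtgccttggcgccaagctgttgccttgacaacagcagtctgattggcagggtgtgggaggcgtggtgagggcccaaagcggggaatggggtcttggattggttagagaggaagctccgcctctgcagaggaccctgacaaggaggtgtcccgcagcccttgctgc
Plagl1 chr10:13090582-13090831 plus strand: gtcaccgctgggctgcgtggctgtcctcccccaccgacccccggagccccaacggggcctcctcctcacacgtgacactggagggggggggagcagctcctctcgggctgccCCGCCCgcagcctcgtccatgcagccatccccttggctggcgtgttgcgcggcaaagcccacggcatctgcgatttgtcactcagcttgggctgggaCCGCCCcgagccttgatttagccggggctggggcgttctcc
Igf2 chr7:142657497-142657746 minus strand: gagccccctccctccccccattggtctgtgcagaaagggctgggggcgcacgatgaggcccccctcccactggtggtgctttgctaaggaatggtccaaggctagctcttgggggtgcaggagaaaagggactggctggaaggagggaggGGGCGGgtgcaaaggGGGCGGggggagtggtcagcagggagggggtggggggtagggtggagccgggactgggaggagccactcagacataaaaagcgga
TGACGTCA was found once in the Meg3 window and once in the Peg3 window, and in 1.55% of 32851 promoter windows of this length. GGGCGG was found in 32.7% of those windows, and the TATA box letters TATAAA, found in the same Meg3 window, in 12.4%. These matches describe the letters and show no binding. The Meg3 window is the first of 2 listed for that gene, and the other held no match to any of these motifs. The Igf2 window is the last of 4 listed for that gene. It held 2 GC boxes, against 0, 0 and 1 in the others. For neither gene do the data tell which promoter was used.

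Library totals ran from 3414123 to 26174008 counts, so that 3 counts, taken as the floor of measurement, equalled between 0.127 and 0.873 CPM, the count scaled to the library total with TMM factors. Epithelial marker genes (Epcam, Krt8, Krt20, Cdh1 and Vil1) summed to 4099 to 7948 CPM in every library. The 8 smooth muscle markers summed to 2013 to 9906 CPM in the 12 normal libraries and to 206 to 1053 CPM in the 9 tumour libraries. Knock-in male tumour replicate 3 held 2568 CPM of skeletal muscle markers, against at most 30.8 CPM in any other library. Squamous markers reached 2286 CPM in knock-in male tumour replicate 2 and at most 813 CPM in any other library. The summed endothelial markers were 67.5 to 97.0 CPM in wild-type female normal colon and 140 to 275 CPM in the other 18 libraries. Fewer cells of a type and less RNA per cell cannot be told apart in such bulk tissue.

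H19 was near the floor in most normal colon libraries and was detected in every tumour library. In wild-type females it was 0.0845, 0.139 and 0 CPM in normal colon (2, 1 and 0 counts) and 77.8, 42.9 and 28.7 CPM in tumours. In knock-in males it was 0.280, 0.569 and 0.950 CPM in normal colon and 4.15, 32.8 and 14.8 CPM in tumours. Every tumour library of these groups lay above every normal library. In wild-type males it was 0.472, 8.31 and 0.199 CPM in normal colon and 7.34, 4.07 and 2.39 CPM in tumours, where normal replicate 2 exceeded all 3 tumours. Knock-in female normal colon held 0.297, 0.112 and 0.459 CPM. The group means fell in the order wild-type female tumour (49.8 ± 25.3 CPM, SD, n = 3), knock-in male tumour (17.2 ± 14.5), wild-type male tumour (4.602 ± 2.52), wild-type male normal (2.99 ± 4.605), knock-in male normal (0.600 ± 0.336), knock-in female normal (0.290 ± 0.174) and wild-type female normal (0.0746 ± 0.0702). Each neighbour in that order overlapped the next.

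**Figure D1:**
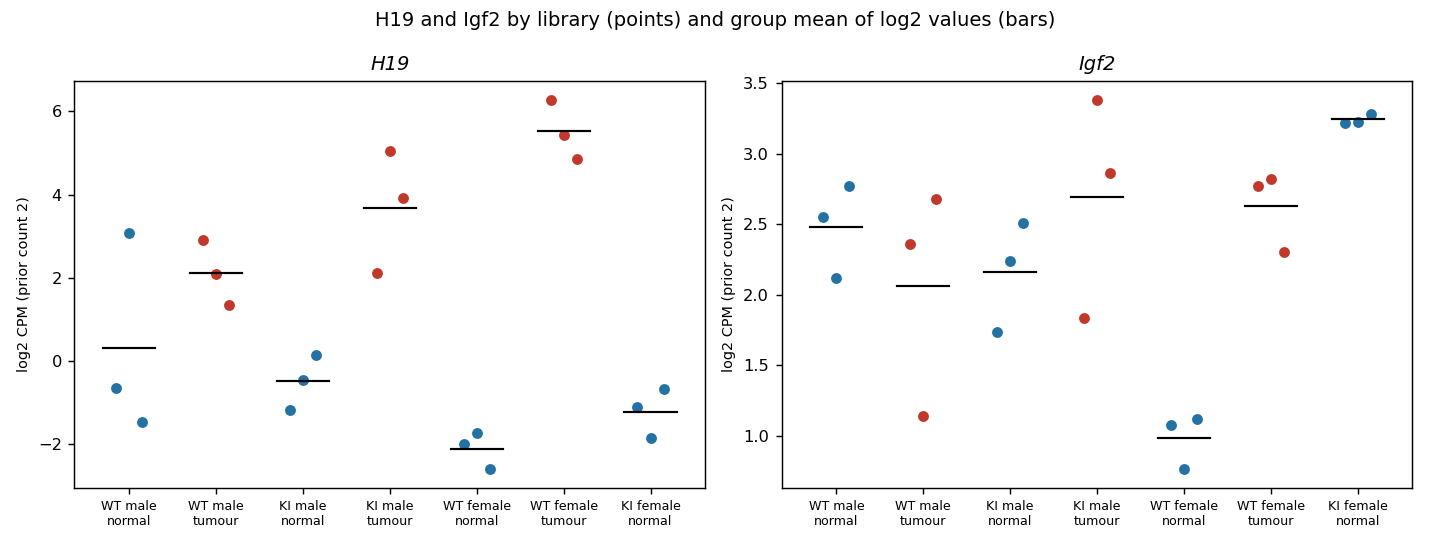
Level of H19 (left) and Igf2 (right) on the log2 CPM scale (prior count 2) in each of the 21 libraries, grouped by genotype (WT wild-type, KI App NL-G-F), sex and tissue. Points are libraries (blue normal, red tumour) and bars are means of the 3 log2 values. H19 of wild-type male normal replicate 2 lies above all 3 wild-type male tumours, and Igf2 is lowest in wild-type female normal colon.

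In knock-in males H19 rose 28.2-fold in tumours (log2 fold change 4.82, SE 1.09, adjusted p = 0.00851). All adjusted p-values come from the quasi-likelihood test of edgeR, with Benjamini-Hochberg correction over 15936 genes, and 0.05 was the threshold. The change was 3.91 on the log2 scale without tumour replicate 2, the library with the highest squamous marker sum (adjusted p = 0.0345), and 4.92 without tumour replicate 3, the library with skeletal muscle markers (adjusted p = 0.0158). In wild-type males the log2 difference was 0.66 (SE 0.94, adjusted p = 0.619). Without normal replicate 2 it was 3.62 (adjusted p = 0.00672), and without tumour replicate 1 it was -0.0022 (adjusted p = 0.999), so 1 library decided this value. That normal library held 2932 CPM of smooth muscle markers, against 7454 and 9906 CPM in the other normal libraries of its group. The part of this in its H19 level was not tested. In wild-type females H19 was at least 148-fold higher in tumours, computed against a floor of 3 counts per normal library, and this is the value for which the gene was chosen. The tumour effect in knock-in minus wild-type males was 4.16 on the log2 scale (SE 1.44, adjusted p = 0.103). It was 4.22 by the DESeq2 Wald test (adjusted p = 0.0489), so the call depended on the tool. With 1 replicate left out in edgeR it ran from 1.15 to 4.77 and never passed (adjusted p from 0.0801 to 0.589). Its size thus depended on single libraries. Between knock-in and wild-type male tumours the difference of 1.87 did not pass the test (SE 0.90, adjusted p = 0.161), and the groups overlapped.

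Igf2, the growth factor gene beside H19, followed another pattern, with its lowest and highest group means both in the normal colon of females. In the normal colon of females it was 1.94, 1.53 and 2.01 CPM in wild-type and 9.16, 9.21 and 9.56 CPM in knock-in mice. Wild-type male normal colon held 5.71, 4.19 and 6.66 CPM, and knock-in male normal colon 3.18, 4.55 and 5.53 CPM. All 3 wild-type female libraries were below the other 9 normal libraries, and all 3 knock-in female libraries were above them. In tumours Igf2 was 4.97, 2.04 and 6.26 CPM in wild-type males, 3.40, 10.3 and 7.13 CPM in knock-in males and 6.65, 6.90 and 4.78 CPM in wild-type females. Knock-in male tumour replicate 2 was the highest library of all.

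Igf2 rose 5.04-fold in knock-in against wild-type female normal colon (log2 fold change 2.33, SE 0.39, adjusted p = 0.000788). It was lower in wild-type females than in wild-type males (log2 -1.58, SE 0.38, adjusted p = 0.0106). Without wild-type female normal replicate 2 that second call was lost (adjusted p = 0.0545). These comparisons and the next share the wild-type female normal libraries, which were part of the contrast from which the set was proposed. Igf2 itself differed 3.30-fold in that contrast, so these p-values are not free of that choice. The genotype effect differed between the sexes by 2.65 (SE 0.52, adjusted p = 0.0142), and it passed the test in all 18 alternatives. The male genotype difference was -0.32 (SE 0.36, adjusted p = 1.00). In the comparison of knock-in females with knock-in males the difference was 1.07 (SE 0.36, adjusted p = 0.151), with no overlap. Tumour against normal colon gave -0.24 in wild-type males (adjusted p = 0.633) and 0.65 in knock-in males (SE 0.35, adjusted p = 0.195), both with overlap. In wild-type females, as a description, tumours held 3.30-fold more.

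Endothelial markers moved with Igf2 in the comparisons of normal colon that use wild-type females. All 5 of them were called lower in wild-type female against wild-type male normal colon, where 15.9% of all genes were called. In knock-in against wild-type female normal colon 4 of 5 were called higher, where 16% of all genes were called. The sums were 67.5 to 97.0 CPM in wild-type females, 166 to 182 in knock-in females and 143 to 249 in wild-type males. Knock-in males held 170 to 244 CPM, and against them all 5 markers were slightly lower in knock-in females (median log2 difference -0.17, none passing the test), while Igf2 was higher there without overlap. Fibroblast markers summed to 1126 to 1368 CPM in wild-type female normal colon and to 2171 to 2744 CPM in knock-in female normal colon. In knock-in against wild-type females 3 of 6 fibroblast and 3 of 8 smooth muscle markers were called higher, and all 4 mesothelial markers lower. In direction all 6 fibroblast and all 8 smooth muscle markers were higher there. In wild-type females against males 3 fibroblast and 2 smooth muscle markers were called lower, and 2 mesothelial markers higher. The part of these cell types in the Igf2 differences was not tested.

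**Figure D2:**
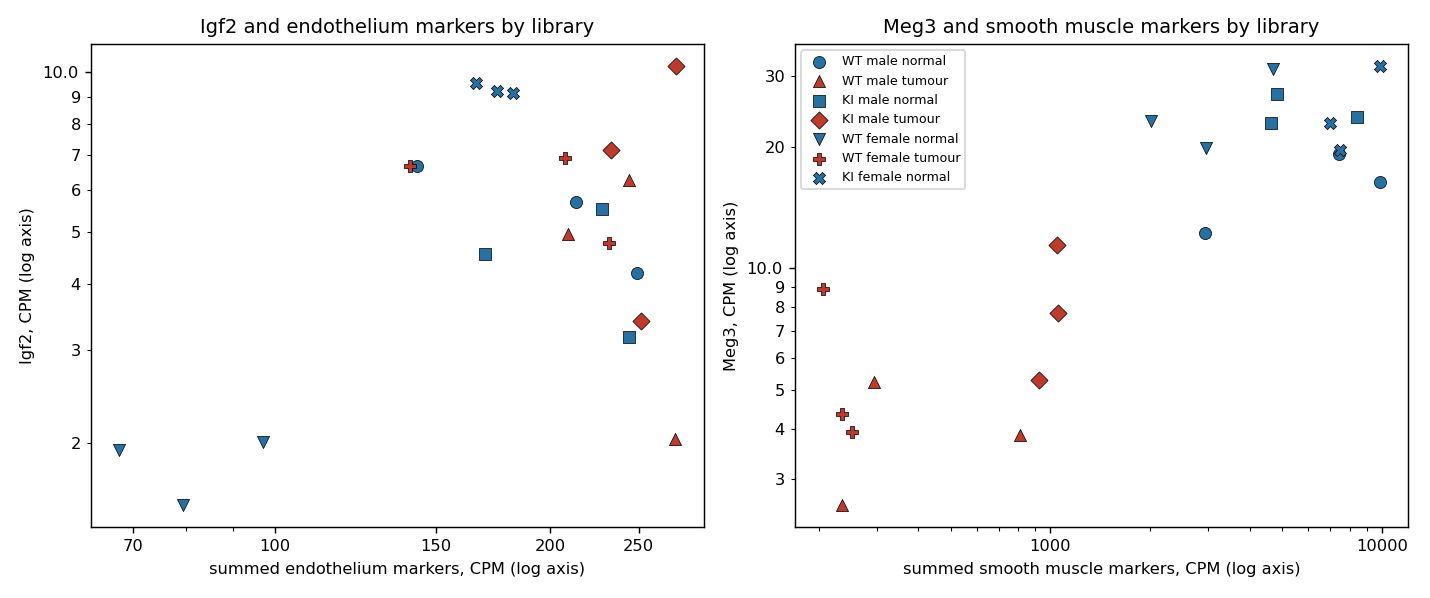
Igf2 against the summed endothelial markers (left) and Meg3 against the summed smooth muscle markers (right), in CPM on log axes, with a point for each of the 21 libraries and a symbol for each group (blue normal, red tumour). The 3 wild-type female normal libraries sit at the lower left of the Igf2 panel at 67.5 to 97.0 CPM of endothelial markers. In the Meg3 panel all tumours lie at 206 to 1053 CPM of smooth muscle markers and below 12 CPM of Meg3.

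The balance between the neighbours was expressed as the share of H19 in the summed H19 and Igf2 counts of a library. It was 92.1% (95% Wilson interval 89.7 to 94.0), 86.2% (82.5 to 89.1) and 85.7% (81.4 to 89.2) in wild-type female tumours. In knock-in male tumours it was 55.0% (45.7 to 63.9), 76.1% (72.9 to 79.1) and 67.6% (61.2 to 73.3). In wild-type male tumours it was 59.6% (52.2 to 66.7), 66.7% (45.4 to 82.8) and 27.7% (19.6 to 37.4), the second on 21 counts in all. The other normal libraries held 0 to 14.7%, and wild-type male normal replicate 2 held 66.5% (59.0 to 73.2). The intervals cover counting error only, and the share in wild-type female tumours was part of the pattern for which H19 was chosen. Shares of counts also depend on length, and H19 has 2460 exon bases against 5723 for Igf2.

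**Figure D3:**
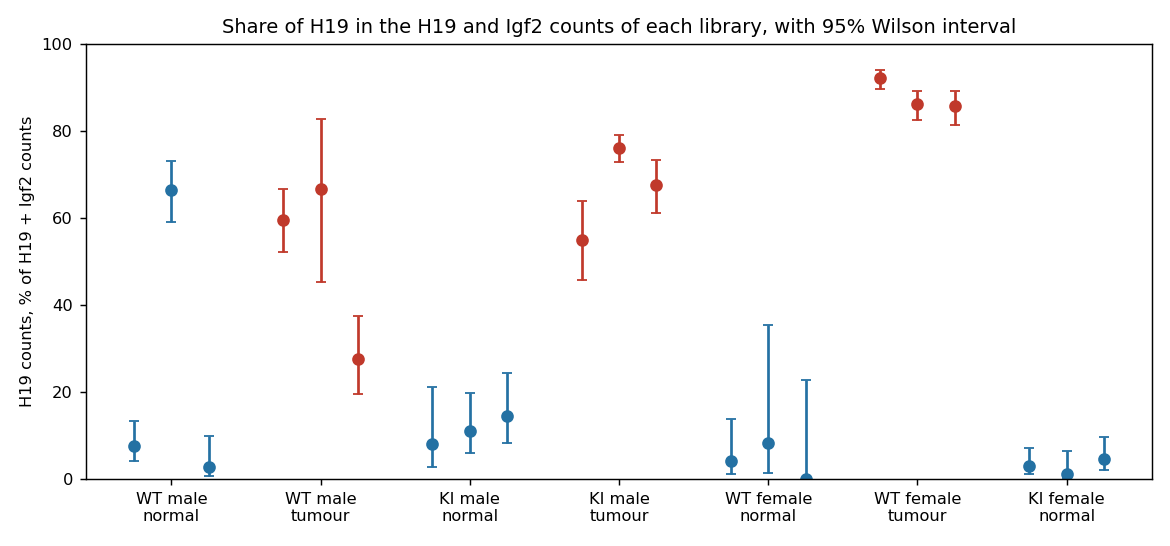
Share of H19 in the H19 plus Igf2 counts of each library, in percent, with 95% Wilson intervals as bars (blue normal, red tumour). Tumours lie between 27.7 and 92.1%, and the normal libraries lie at or below 14.7% except 1 wild-type male library at 66.5%.

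Igf2r, the clearance receptor for IGF2, was the most abundant of the 10 genes per kilobase in every group. The highest group was wild-type male tumour, with 38.9 ± 1.58 CPM per kilobase (SD, n = 3), and the lowest was knock-in female normal colon, with 26.6 ± 1.61. In CPM it was 369, 345 and 372 in wild-type male tumours and 263, 303 and 296 in wild-type male normal colon, without overlap, a rise of 1.26-fold (log2 0.33, SE 0.11, adjusted p = 0.0272). Knock-in male tumours held 330, 250 and 262 CPM, all below the wild-type male tumours, with a log2 difference of -0.37 (SE 0.11, adjusted p = 0.0376). The rise was lost without wild-type normal replicate 1 or 3 or tumour replicate 1 or 3 (adjusted p up to 0.149). The genotype call was lost in 7 of 13 alternatives, among them the omission of any wild-type tumour or of knock-in tumour replicate 2 or 3 (adjusted p up to 0.138). Knock-in male tumours and knock-in male normal colon (288, 267 and 269 CPM) overlapped, with a difference of 0.031 (adjusted p = 0.868). Grb10 lay between 12.2 and 27.0 CPM in every library and passed no test.

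Cdkn1c and Plagl1, which restrain the cell cycle, were high in wild-type tumours of both sexes and varied widely among normal libraries. Cdkn1c was 40.4, 35.5 and 44.7 CPM in wild-type male tumours and 11.9, 20.7 and 3.08 CPM in wild-type male normal colon, without overlap. In wild-type females it was 36.9, 28.8 and 46.5 CPM in tumours and 6.21, 3.76 and 5.11 CPM in normal colon. In knock-in males it was 21.6, 15.5 and 26.7 CPM in tumours and 18.2, 4.997 and 32.7 CPM in normal colon, which overlapped. Normal colon of knock-in females held 4.88, 4.94 and 4.51 CPM.

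The wild-type male rise of Cdkn1c was 3.36-fold (log2 1.75, SE 0.55, adjusted p = 0.0210). With the replicate number as a block it was 1.61 (adjusted p = 0.0682), and it was 0.0638 with only the compared groups. Without normal replicate 1 or 3 or tumour replicate 1 or 3 the adjusted p also exceeded 0.05, up to 0.07003. In knock-in males the difference was 0.19 (SE 0.54, adjusted p = 0.826). The tumour effect in knock-in minus wild-type males was -1.55 (SE 0.76, adjusted p = 0.214). Knock-in male tumours lay below wild-type male tumours without overlap, but the difference of -0.93 did not pass the test (SE 0.54, adjusted p = 0.241). It passed in 1 of 13 alternatives, the fit of only the compared groups (adjusted p = 0.0334). As a description, wild-type female tumours held 7.26-fold more than normal colon.

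Plagl1 was 44.5, 80.0 and 69.5 CPM in wild-type male tumours and 19.3, 19.0 and 2.39 CPM in wild-type male normal colon. In wild-type females it was 39.4, 34.0 and 58.6 CPM in tumours and 2.37, 1.67 and 4.64 CPM in normal colon. Tumours exceeded normal colon in both groups without overlap. In knock-in males it was 39.0, 13.1 and 27.7 CPM in tumours and 19.7, 5.31 and 19.5 CPM in normal colon, which overlapped, and knock-in female normal colon held 7.67, 4.27 and 4.36 CPM. Plagl1 rose 4.66-fold in wild-type male tumours (log2 2.22, SE 0.62, adjusted p = 0.0114). The knock-in male difference was 0.85 (SE 0.61, adjusted p = 0.329), and the difference between these effects was -1.37 (SE 0.85, adjusted p = 0.323). Wild-type female against wild-type male normal colon gave -2.31 (SE 0.71, adjusted p = 0.0369) although the groups overlapped through wild-type male normal replicate 3. That call was lost in 7 of 13 alternatives, among them the omission of wild-type female normal replicate 1 or 2 or of wild-type male normal replicate 1 or 2. As a description, wild-type female tumours held 15.8-fold more Plagl1 than normal colon.

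Cdkn1c and Plagl1 varied together. Pearson's r of their log2 CPM was 0.88 across the 12 normal libraries and 0.84 across the 9 tumour libraries, given as descriptions, since libraries of a group share genotype, sex and tissue. The normal libraries with the 4 highest Plagl1 levels, replicates 1 and 2 of wild-type males and 1 and 3 of knock-in males, were also the 4 highest in Cdkn1c.

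**Figure D4:**
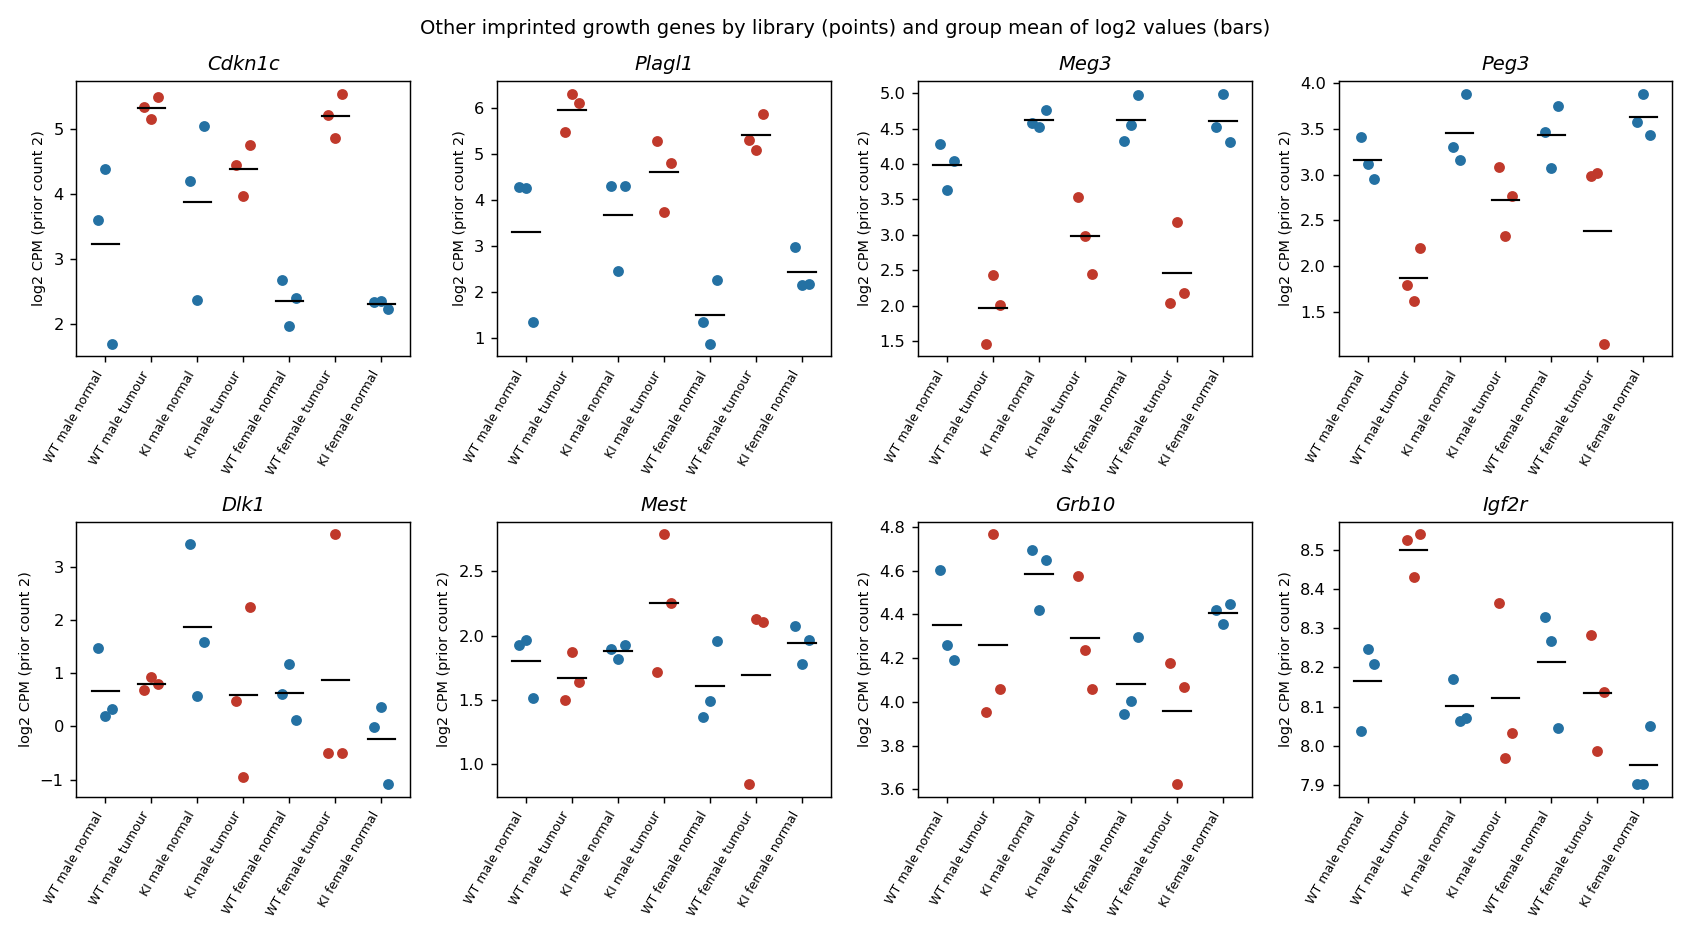
Levels of the 8 other genes on the log2 CPM scale (prior count 2), each panel with its own axis, in 7 groups by genotype (WT wild-type, KI App NL-G-F), sex and tissue. Points are libraries (blue normal, red tumour) and bars are means of the 3 log2 values. Meg3 is lower in every tumour library than in every normal library, and Dlk1 in wild-type female tumours rests on a single high library at 12.0 CPM.

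Meg3, the maternally expressed non-coding RNA, was lower in tumours than in normal colon in every group that allowed the comparison. The 12 normal libraries lay between 12.3 and 31.8 CPM (median 22.9) and the 9 tumour libraries between 2.59 and 11.4 CPM (median 5.24), without overlap. It was 19.3, 12.3 and 16.4 CPM in wild-type male normal colon and 2.59, 5.24 and 3.87 CPM in the tumours. In knock-in males it was 23.7, 23.0 and 27.1 CPM in normal colon and 11.4, 7.74 and 5.27 CPM in tumours. Tumours were below normal colon throughout. Wild-type female normal colon held 19.9, 23.3 and 31.3 CPM, the tumours 3.94, 8.88 and 4.35 CPM, and knock-in female normal colon 22.9, 31.8 and 19.7 CPM.

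In wild-type male tumours Meg3 fell 4.37-fold (log2 -2.13, SE 0.35, adjusted p = 0.000178). In knock-in male tumours it fell 2.997-fold (log2 -1.58, SE 0.31, adjusted p = 0.00353). Both calls held in all 13 alternatives run on each. The difference between these effects was 0.54 (SE 0.46, adjusted p = 0.466). Knock-in male tumours held 2.24-fold more Meg3 than wild-type male tumours (log2 1.16, SE 0.35, adjusted p = 0.0343), without overlap. That call was lost in 6 of 13 alternatives: with the replicate block (adjusted p = 0.0656), with only the compared groups (0.0975) and without wild-type tumour replicate 1 or 3 or knock-in tumour replicate 1 or 2, with adjusted p up to 0.173. In the male tumour comparisons Meg3 moved with the smooth muscle markers. All 8 fell in tumours of both male genotypes, with median log2 changes of -4.06 in wild-type and -2.54 in knock-in males. In knock-in against wild-type male tumours all 8 differed upward (median 1.24) and none passed the test. In normal colon Meg3 did not move with these markers. All 8 were lower in wild-type females than in wild-type males (median -1.14), where Meg3 was higher without overlap (log2 0.62, SE 0.30, adjusted p = 0.165). All 8 were higher in knock-in than in wild-type females (median 1.47), where the Meg3 difference was 0.0020. Of 6 enteric neuron markers 4 were called lower in wild-type and 3 in knock-in male tumours, and of 4 enteric glia markers 3 and 1. Of all genes 35.7% and 20.4% were called in these comparisons. The part of muscle and of the enteric nervous system in the Meg3 and Peg3 values was not tested.

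Peg3, a zinc finger gene expressed from the paternal copy, was 10.5, 8.53 and 7.56 CPM in wild-type male normal colon and 3.31, 2.91 and 4.42 CPM in the tumours. It fell 2.45-fold (log2 -1.29, SE 0.37, adjusted p = 0.0116). Without wild-type tumour replicate 1 the adjusted p was 0.05002. In knock-in males it was 9.71, 8.79 and 14.6 CPM in normal colon and 8.30, 4.85 and 6.64 CPM in tumours, a difference of -0.74 that did not pass the test (SE 0.35, adjusted p = 0.135) although the groups did not overlap. In wild-type females it was 10.9, 8.22 and 13.3 CPM in normal colon and 7.74, 7.95 and 2.06 CPM in tumours. Knock-in female normal colon held 11.8, 14.6 and 10.6 CPM. Meg3 and Peg3 varied together with r of 0.72 over the normal libraries and 0.54 over the tumours, again as descriptions.

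Dlk1, the neighbour of Meg3, passed no test and differed mostly by library. It was 12.0 CPM in wild-type female tumour replicate 2 and 0.543 CPM in each of the other tumours of that group, and 10.6, 1.33 and 2.85 CPM in knock-in male normal colon. The remaining libraries lay between 0.306 and 4.59 CPM. As a description, the wild-type female tumour difference of 1.59 on the log2 scale became -1.40 without replicate 2. Mest lay between 1.63 and 6.74 CPM and passed no test. Its highest library was knock-in male tumour replicate 2, at 6.74 CPM, which was also the highest in Igf2.

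The calls are counted here against all 15936 tested genes. In wild-type male tumours against normal colon 5 of 10 genes were called, with Cdkn1c, Plagl1 and Igf2r higher and Meg3 and Peg3 lower, and 35.7% of all genes were called. With the replicate block 4 of 10 were called, all but Cdkn1c. In knock-in males 2 of 10 were called (H19 higher and Meg3 lower), against 20.4% of all genes. Neither count is read as a result about the set. Between knock-in and wild-type male tumours 2 of 10 were called (Meg3 higher and Igf2r lower), against 14.5%. Between knock-in and wild-type male normal colon none was called, against 0.0126%, and none of the 10 had an unadjusted p under 0.05 or was called by DESeq2.

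In knock-in against wild-type female normal colon 1 of 9 genes tested was called, Igf2, against 16% of all genes. In wild-type female against male normal colon 2 of 9 were called, Igf2 and Plagl1, both lower, against 15.9%. In wild-type female against male tumours none of 9 was called by edgeR, against 0.86% of all genes, 1 had an unadjusted p under 0.05 and 1 was called by DESeq2 (Igf2r in both). In knock-in female against male normal colon none of 10 was called by edgeR, against 0.584%, while 4 had an unadjusted p under 0.05 and DESeq2 called 1, Cdkn1c. None of 10 was called by edgeR for the tumour effect between male genotypes, where 1.51% of genes were called, 1 had an unadjusted p under 0.05 and DESeq2 called 1 (H19 in both), and 1 of 9 differed in the genotype effect between the sexes, Igf2, where 2.54% were called. In wild-type female tumours, 6 of 10 genes did not overlap with normal colon, and neither did 58.4% of all genes, and nothing is read from it.

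**Figure D5:**
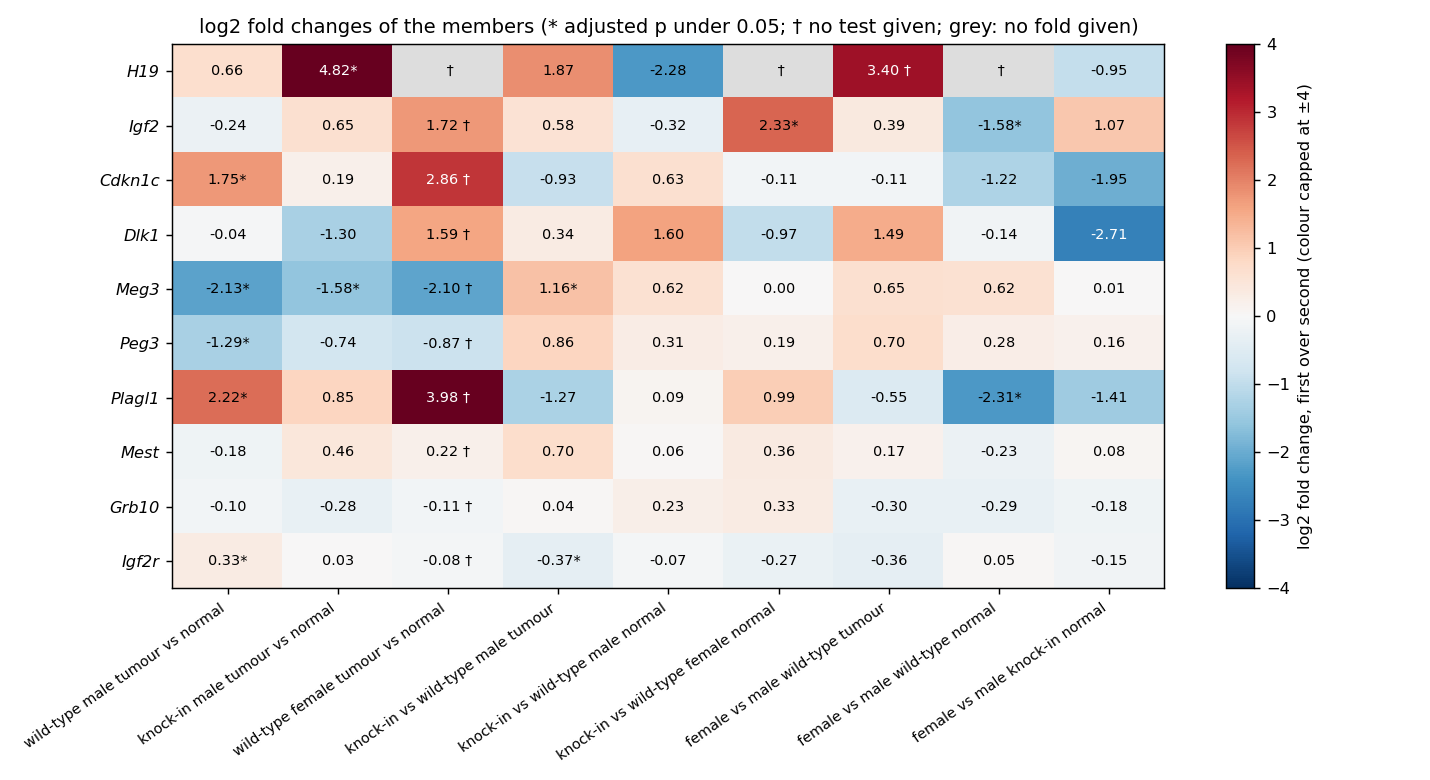
Fitted log2 fold change (first group over second, colours capped at 4 in either direction) of the 10 genes in the 9 comparisons of 2 groups. Asterisks mark an adjusted p under 0.05 in edgeR's quasi-likelihood test, daggers values given with no test, and grey cells comparisons of H19 with wild-type female normal colon, where no fold is drawn. Meg3 is negative in all 3 tumour comparisons, and Igf2 has its calls in the normal colon of females.

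Further imprinted genes were followed in a list of 46, of which 31 passed the filter. Like the lists below, it was chosen with earlier results of these data known. No count of calls is read as a result about a list. In wild-type male tumours 4 rose and 7 fell, 11 of 31 where 35.7% of all genes were called (median log2 fold change 0.11, against 0.0054 over all genes). The largest changes were those of Ndn, a paternally expressed gene of the melanoma antigen family (-3.87, SE 0.52, adjusted p = 3.13e-05), Peg10, a retrotransposon-derived gene (-2.27, adjusted p = 0.000642), and Rian, a non-coding RNA of the Dlk1-Meg3 domain (-1.88, adjusted p = 0.000448). Without tumour replicate 1 there were 7 calls in place of 11, and with library totals in place of TMM factors 6 rose and 5 fell. In knock-in male tumours 4 rose and 2 fell, where 20.4% of all genes were called (median 0.051, against 0.0066). Among them were Phlda2, a growth-restraining gene of the Cdkn1c domain, at 1.44 (SE 0.38, adjusted p = 0.0154) and Copg2 at 0.46. With only the compared groups none rose and 1 fell. Between knock-in and wild-type male tumours 4 rose and none fell, where 14.5% of all genes were called (median -0.089, against 0.053), including Rian (1.31, adjusted p = 0.0215) and Kcnq1ot1, the non-coding RNA of the Cdkn1c domain (0.51, SE 0.085, adjusted p = 0.00384). Without wild-type tumour replicate 1 or knock-in tumour replicate 2, and with only the compared groups, 1 call was left. In knock-in against wild-type female normal colon 6 rose and 3 fell, where 16% of all genes were called (median -0.020, against 0.015), led by Ascl2, an intestinal stem cell factor (1.41, SE 0.30, adjusted p = 0.00440), and 2 or 3 calls were left without wild-type replicate 1 or 2 or knock-in replicate a. With library totals 8 rose and 1 fell. Wild-type female against male normal colon gave 2 higher and 5 lower, where 15.9% of all genes were called (median -0.12, against -0.0040), with Ascl2 at -2.26 (SE 0.29, adjusted p = 9.00e-05), and 3 or 4 calls in all were left without wild-type female replicate 1 or 2 or male replicate 2.

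All 20 genes of the IGF pathway list (ligands, receptors, binding proteins and their regulators) passed the filter. In wild-type male tumours 4 rose and 5 fell, where 35.7% of all genes were called (median -0.046). Stc1, an inhibitor of the protease that frees IGF from its binding proteins, rose (1.87, SE 0.59, adjusted p = 0.0207). The binding protein gene Igfbp2 (-3.19, adjusted p = 0.00211) and the protease gene Pappa2 (-2.81, adjusted p = 5.06e-05) fell. In knock-in male tumours 4 rose and 4 fell, where 20.4% of all genes were called (median 0.062), with Igfbp2 at -3.65, Stc1 at 2.44 and Pappa2 at -1.79 among them, and 4 calls in all were left without normal replicate 3 or tumour replicate 2 and with only the compared groups. Between male tumours, knock-in against wild-type, 2 rose and 1 fell, 3 of 20 where 14.5% of all genes were called (median 0.20, against 0.053). Igf1r (0.70, adjusted p = 0.0293) and Pappa2 (1.49, adjusted p = 0.0214) rose, and Igf2bp2, an RNA-binding protein named for its Igf2 target, fell (-1.76, SE 0.34, adjusted p = 0.00606). Of these 3 calls 1 was left without wild-type tumour replicate 1 or 2 or knock-in tumour replicate 2.

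For knock-in against wild-type female normal colon 6 genes of the IGF list rose and 1 fell, 7 of 20 where 16% of all genes were called (median 0.31, against 0.015). Igfbp3 rose by 2.69 (SE 0.51, adjusted p = 0.00272), Igfbp2 by 2.52 (adjusted p = 0.0134) and Igfbp5 by 1.83 (adjusted p = 0.00523). In wild-type female against wild-type male normal colon none rose and 7 fell, where 15.9% of all genes were called (median -0.28, against -0.0040), with Stc1 at -2.81, Igfbp3 at -2.54 and Igfbp5 at -2.26. These binding protein genes moved in the same groups as Igf2 and as the endothelial and fibroblast markers given above, whose part was not tested.

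A list of 13 genes that keep or read imprints, such as DNA methyltransferases and zinc finger factors, had 12 in the fit. Of these, 9 rose and 1 fell in wild-type male tumours, 10 of 12 where 35.7% of all genes were called (median 0.53, against 0.0054). The list was chosen with earlier results known, so this count is not read as a result about it. Zfp57, which protects methylated imprints, rose by 1.65 (SE 0.38, adjusted p = 0.00300), the methyltransferase gene Dnmt3b by 1.27 (adjusted p = 0.000609) and the demethylating enzyme gene Tet3 by 0.63 (adjusted p = 0.00118). With the replicate block 5 rose and 1 fell, and of the 10 calls 5 were left without tumour replicate 1 and 6 without tumour replicate 2 or normal replicate 3. In knock-in male tumours 2 rose, Zfp445 (0.43, adjusted p = 0.00690) and Trim28 (0.33, adjusted p = 0.0334), and 1 fell, where 20.4% of all genes were called (median 0.29, against 0.0066). None was called with only the compared groups, and 1 call was left with later libraries as covariate and without normal replicate 1 or 3 or tumour replicate 2 or 3. Between the male tumours Tet3 (-0.45, adjusted p = 0.0305) and Trim28 (-0.34, adjusted p = 0.0382) were lower in knock-in, where 14.5% of all genes were called. Neither was called without wild-type replicate 1 or 3 or knock-in replicate 2, and 1 was called without wild-type replicate 2 and with only the compared groups.

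The 5 genes most like H19 over the 21 libraries, by Pearson's r of log2 CPM among 12628 genes, were Spp1 (0.95), Csgalnact1 (0.94), Trip13 (0.94), Mmp13 (0.93) and Lrg1 (0.92). Those most like Igf2 were Nr2f2 (0.84), Got2 (0.79), Pold1 (0.79), Aplnr (0.77) and Rab12 (0.77). These values are descriptions, since the libraries fall into tumours and normal colon and share group and depth. Between H19 and Igf2 themselves r was 0.23 over the 12 normal libraries and 0.58 over the 9 tumours.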

How the data were processed

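The members and gene lists were chosen with earlier results of these data known. Colon RNA was freed of ribosomal RNA before random-primed cDNA was made and sequenced, per the labels' protocols. Trimmomatic, HISAT2, featureCounts, DESeq2 and the build mm10 are named in the submitters' processing notes. The values used are raw counts per gene, as the authors deposited them. The authors' DESeq2 table was not used. For knock-in female normal colon, 2 columns share a header, and these are replicates a and b beside replicate 1.

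One edgeR fit (4.0.16, R 4.3.3) held all 21 libraries: TMM scaling, filterByExpr by group, robust quasi-likelihood test, two-sided, 9 comparisons and 2 interactions, Benjamini-Hochberg adjustment over the tested genes, threshold 0.05. SEs were derived from the F statistic. Log2 CPM used a prior count of 2. No 2 libraries of a group agreed within sampling noise. Named list genes are up to 3 per list and comparison with the largest change among called genes with at least 50 mean counts in a compared group and no overlap between groups. Nearest genes are the 5 with the highest r. The edgeR and DESeq2 fits were tested on simulated data. Alternatives were DESeq2 1.42.0, other scaling, no filter, only the compared groups, later libraries (numbered 152 and above) as covariate, the replicate block on 18 libraries, and omission of each replicate.

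Same-numbered samples deviated together in wild-type male tumour against normal, with r of 0.17, 0.17 and 0.21 by the replicate numbers in the labels. In that comparison the numbers met the limit set for pairing, r over 0.1 in every pair. This does not show that same-numbered samples share an animal. Between knock-in and wild-type male normal colon, which differ in genotype, replicate 1 gave 0.46, against -0.21 and -0.070 for replicates 2 and 3. The values given are from the fit without the block, and the blocked value stands beside a result where it changes a call. Other comparisons did not meet r over 0.1 in every pair. The block gives each replicate number a term shared by all groups in the fit. It is thus an alternative fit in every comparison, wild-type male tumour against normal included. No fit paired the wild-type male samples alone.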

Additional observations from a re-analysis of the deposited data

Results flagged for a closer look

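The effect of the App NL-G-F genotype on normal colon differed between the sexes for Igf2 and for 3 IGF-binding protein genes, by a test of the interaction (female minus male) in edgeR. For Igf2 the difference was 2.65 on the log2 scale (SE 0.52, adjusted p = 0.0142), and it passed the test in all 18 alternatives, with adjusted p from 0.000118 to 0.0485. Igfbp3 differed by 3.03 (SE 0.68, adjusted p = 0.0280), Igfbp5 by 2.14 (SE 0.53, adjusted p = 0.0414) and Igfbp7 by 1.33 (SE 0.34, adjusted p = 0.0445). These calls were lost in 7, 11 and 12 of the 18 alternatives, with adjusted p up to 0.0909, 0.108 and 0.135. Igfbp7 was chosen after its value was seen, so its p-value is a description. Of the members 1 of 9 tested was called here, and of the IGF list 3 of 20, where 2.54% of all genes were called. Igfbp7 is among these 3, and the lists were chosen with earlier results known. Neither count is therefore read as a result about the set or the list. All 4 comparisons use wild-type female normal colon, where endothelial markers summed to 67.5 to 97.0 CPM. Those libraries were also part of the contrast from which the set was proposed, so the p-values are not free of that choice. In the same interaction 2 of 5 endothelial markers were called higher and 3 of 4 mesothelial markers lower. No fibroblast or smooth muscle marker was called in it. The part of these cell types in the values was not tested.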

How the results depend on the processing

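Of 404 recomputed fold changes of single genes, 361 kept their direction and their side of the threshold or moved within the spread. H19 in wild-type male tumours went from 0.66 to -0.0022 without wild-type male tumour replicate 1 and to 3.62 without wild-type male normal replicate 2. The number of members called changed as follows; the cause was not tested beyond what each setting removes. In wild-type male tumours against normal colon it was 5, and 4 with the replicate block and 4 with only the compared groups, each without Cdkn1c. In knock-in against wild-type male tumours it was 2, and 1 with later libraries as covariate, 1 with the replicate block and 1 with only the compared groups. With only the compared groups that call was Cdkn1c, and neither Meg3 nor Igf2r was called. In wild-type female against male normal colon it was 2, and 1 with no filter, 1 with the replicate block and 1 with only the compared groups, each without Plagl1. With DESeq2 it became 1 from 0 in wild-type female against male tumours (Igf2r), in knock-in female against male normal colon (Cdkn1c) and in the male tumour-effect difference (H19). Omitting 1 library gave 2 to 6 (from 5) in wild-type male tumours, 0 to 1 between male tumours, 0 to 3 between wild-type normals, 0 to 1 between knock-in normals and 0 to 1 in the male tumour-effect difference. Library totals in place of TMM shifted the median of all genes to 0.15 in wild-type female tumours and 0.10 in knock-in against wild-type female normal colon. The replicate block ended the calls of Cdkn1c in wild-type male tumours (adjusted p = 0.0682), Meg3 between male tumours (0.0656) and Plagl1 between wild-type normals (0.0623), and no other member call. In the comparisons of the Meg3 and Plagl1 calls the same-numbered samples did not meet the limit for pairing. Low counts limit H19 in normal colon, Dlk1 and the smallest library.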
